A study of Rattus norvegicus with 115 samples.

Results

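The 10 genes described here, Cdkn1a, Mdm2, Aen, Phlda3, Ccng1, Sesn1, Sesn2, Tp53inp1, Plk2 and Plk3, are transcriptional targets of p53 that act in the cell cycle, in feedback on p53 and its upstream signals, or in the stress response. They were chosen by gene symbol, with earlier results of these data known. Each was read from the probe set that was brightest on average among those annotated to that symbol alone. All 10 were on the array, among 14217 genes represented in the same way. The 115 arrays came from 60 Fisher rats. Every rat, the untreated ones included, carried a tumour of the rat glioblastoma line 9L, raised from 100000 cells placed in the right caudate nucleus 10 days before treatment. Rats were left untreated, received microbeam radiotherapy (MRT, thin synchrotron beams of 400 Gy separated by valleys of 18 Gy) or received a broad beam (BB) of 17.4 Gy. The tumour and the opposite hemisphere, called contralateral below, were sampled up to 15 d later. At 6 h the tumour arrays came from 5 untreated, 9 MRT and 6 BB rats, at 48 h from 4, 8 and 4, at 8 d from 4, 7 and 4, and at 15 d from 4 MRT and 4 BB rats. The contralateral numbers were the same except for 7 MRT and 3 BB arrays at 48 h and 6 MRT arrays at 8 d. Each rat gave at most 1 array per tissue, and the ages and sexes of the rats were not given in the sources used here.

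The transcription factor p53 is stabilised after DNA damage, binds response elements made of paired half-sites, and switches on genes that halt the cell cycle, repair damage or start apoptosis. Cdkn1a encodes p21, the inhibitor of cyclin-dependent kinases through which p53 stops cells in G1, and Mdm2 encodes the ubiquitin ligase that marks p53 for degradation and so closes a negative feedback loop. Radiation is a classical trigger of this response in brain and in tumour cells.

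Values are the normalized array intensities deposited by the authors, and differences are log2 differences ± standard error from limma, with p-values adjusted by Benjamini-Hochberg across all 14217 genes. A gene is said to have risen or fallen where its adjusted p was under 0.05. Untreated samples were taken at 6 h, 48 h and 8 d, so the 15 d arrays are compared between MRT and BB and with earlier times only. All 35 BB arrays carry a label set of their own, with RMA as the only normalization named, while the labels of the other 80 name RMA and MAS5. Within a tissue an effect of BB, or a difference between MRT and BB, therefore cannot be told apart from a difference between these label sets. MRT and BB were compared with the same untreated arrays, so the results of both share them. One array stands apart, the untreated contralateral array of rat 18 at 48 h. Its median intensity was 165, against 117 to 147 on all other arrays, and calls of the 10 genes that its removal changed are given with and without it. Other single arrays were left out in turn only from groups of at most 5 arrays, so the MRT arrays up to 8 d and the BB arrays of 6 h were not. Neuron markers averaged 8.17 to 10.42 log2 in the group medians of tumour and 11.36 to 11.81 in those of contralateral tissue, and 9L markers 10.28 to 12.69 against 6.48 to 8.83. The 9L markers are Cdkn2a, Timp1, Col1a1, Col3a1, Col5a2 and Mmp3, a set for 9L tumour or mesenchymal cells and so not particular to 9L cells. In contralateral tissue at 6 h they were at 6.90 to 7.15 after MRT and 6.28 to 6.60 untreated. The contralateral arrays of untreated rat 30 at 8 d (9.89) and of BB rats 59 and 60 at 15 d (9.31 and 10.37) had the highest levels of these markers in their tissue. These are bulk tissue samples, in which fewer cells of a type and less RNA per cell cannot be told apart.

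The promoters of members that did and did not respond were searched for matches to the p53 half-site consensus. RefSeq start sites on the rat build GRCr8 gave a window of 300 bases (250 before the start and 50 after) for 9 of the 10 genes, all but Tp53inp1. A p53 half-site consensus match of 10 bases, searched on both strands, was found in 4 of these 9 windows, those of Cdkn1a, Aen, Ccng1 and Sesn1, and in 7.98% of all 33469 promoter windows. No member window held a pair of half-sites at most 13 bases apart, an arrangement present in 0.0598% of all windows. Matches describe letters only, and a window of this size leaves out distant response elements. The stretches below are written 5′ to 3′ on the gene's strand, with the half-site in capitals. They cover bases -250 to -113 of Cdkn1a (chr20:7150682-7150819, plus strand), -40 to -11 of Aen (chr1:142224493-142224522, plus strand), -250 to -1 of Ccng1 (chr10:25684877-25685126, minus strand) and of Sesn1 (chr20:46948469-46948718, plus strand), and, as a member without a match, -250 to -1 of Phlda3 (chr13:49744753-49745002, plus strand).
Cdkn1a: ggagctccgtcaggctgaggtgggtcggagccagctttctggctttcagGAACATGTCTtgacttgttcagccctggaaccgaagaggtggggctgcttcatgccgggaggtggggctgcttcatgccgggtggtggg
Aen: agccgaagccGGGCATGTCCgggcaagcaa
Ccng1: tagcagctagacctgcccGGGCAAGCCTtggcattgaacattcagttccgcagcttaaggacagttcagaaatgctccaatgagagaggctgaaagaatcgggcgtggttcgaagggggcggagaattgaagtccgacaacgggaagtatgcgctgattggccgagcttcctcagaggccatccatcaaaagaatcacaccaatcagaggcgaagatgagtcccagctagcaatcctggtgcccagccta
Sesn1: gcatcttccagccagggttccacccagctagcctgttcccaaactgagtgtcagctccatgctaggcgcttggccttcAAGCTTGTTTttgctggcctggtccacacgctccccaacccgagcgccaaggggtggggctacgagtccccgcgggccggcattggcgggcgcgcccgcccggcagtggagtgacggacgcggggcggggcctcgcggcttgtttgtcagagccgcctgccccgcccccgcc
Phlda3: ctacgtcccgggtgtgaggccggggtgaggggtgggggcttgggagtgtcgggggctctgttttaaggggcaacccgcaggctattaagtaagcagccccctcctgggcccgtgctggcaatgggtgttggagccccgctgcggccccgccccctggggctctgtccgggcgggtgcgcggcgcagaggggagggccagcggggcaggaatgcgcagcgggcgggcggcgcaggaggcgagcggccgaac

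In tumours irradiated with MRT, 7 of the 10 genes were called at 6 h, all higher, where 1.42% of all genes were called in either direction, and 6 at 48 h, all higher, where 2.35% were called. At 8 d, with 47.8% of all genes called, 4 rose (Cdkn1a, Aen, Ccng1 and Tp53inp1) and Sesn1 fell. The median difference of the 10 genes at these times was 0.95, 0.75 and 0.07, while that of all genes lay between -0.04 and 0.01. After BB, 6 were called at 6 h (17.4% of all genes), 4 at 48 h (2.6%) and 3 at 8 d (22.9%), all higher, with medians of 0.62, 0.63 and 0.14 beside -0.02 to 0.05 for all genes. Cdkn1a and Aen were called higher in tumours at all 3 times after either treatment, Ccng1 and Tp53inp1 at all 3 times after MRT, and Mdm2 and Sesn2 at 6 h and 48 h after either. No call was made for Plk2 or Plk3 in tumours after either treatment.

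Contralateral tissue gave calls for 7 genes at 6 h after MRT, all higher (8.22% of all genes called), for 9 at 48 h, 8 higher and 1 lower (32.2%), and for 8 at 8 d, 7 higher and 1 lower (7.91%). The medians of the 10 genes were 1.07, 1.12 and 1.06. After BB there were 7 calls at 6 h, all higher (21.6%), 8 at 48 h, 7 higher and 1 lower (21.6%), and 5 at 8 d, 4 higher and 1 lower (5.94%), with medians of 1.11, 0.85 and 0.28. The median of all genes was -0.11 for MRT and -0.15 for BB at 48 h and between 0.02 and -0.01 in the other comparisons. Without the array of rat 18 the counts at 48 h were 8 after MRT and 6 after BB. The shares of all genes called without that array are not given, so these counts need not be particular to the members. Cdkn1a, Mdm2, Aen and Phlda3 were called higher in all 6 comparisons with untreated contralateral tissue.

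**Figure D1:**
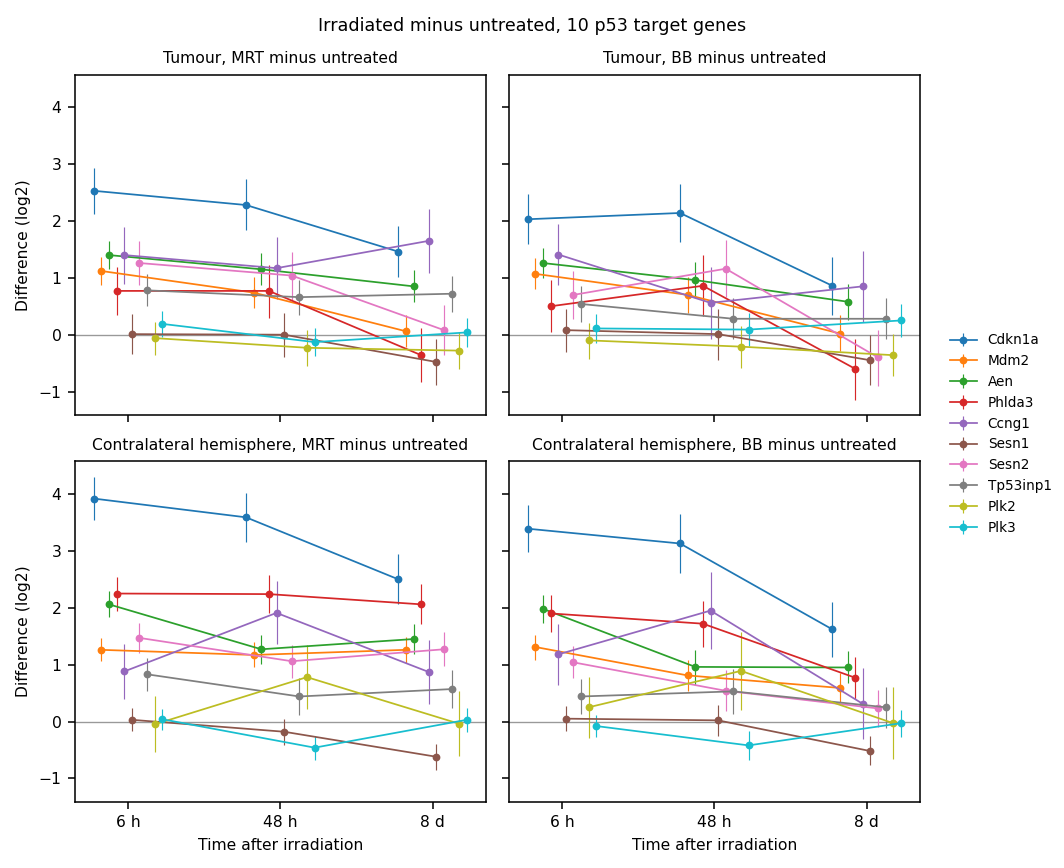
Log2 difference between irradiated and untreated samples for the 10 genes at 6 h, 48 h and 8 d, with tumour above, contralateral tissue below, MRT on the left and BB on the right; lines through the points only guide the eye and bars are 95% confidence intervals. Cdkn1a lies highest at every time in contralateral tissue, from 3.92 at 6 h to 2.50 at 8 d after MRT, and the 48 h contralateral values of Plk2 and Ccng1 include the array of rat 18.

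Cdkn1a had the largest difference of the 10 genes in all comparisons with untreated samples except MRT tumours at 8 d, where Ccng1 was higher. Its intensity in untreated tumours was 323, 411, 453, 504 and 671 at 6 h, 329, 456, 480 and 645 at 48 h, and 793, 851, 863 and 879 at 8 d. After MRT the lowest, median and highest tumour values were 1539, 2699 and 3890 at 6 h, 1764, 2346 and 2714 at 48 h, and 2004, 2244 and 3014 at 8 d, and the values at 15 d were 1498, 1659, 1831 and 2544. After BB they were 986, 1800.5 and 4236 at 6 h, and single values were 1824, 1865, 2018 and 2564 at 48 h, 1015, 1523, 1730 and 2078 at 8 d, and 847, 890, 921 and 928 at 15 d. Every irradiated tumour lay above all untreated tumours of its time, and the untreated tumours of 8 d lay above all earlier untreated ones. The difference after MRT was 2.53 ± 0.20 at 6 h, 2.28 ± 0.22 at 48 h and 1.46 ± 0.23 at 8 d (adjusted p = 8.7e-07), and after BB 2.03 ± 0.22, 2.14 ± 0.25 and 0.86 ± 0.25 (adjusted p = 0.013 at 8 d). Without BB rat 55 the last was 0.71 with adjusted p = 0.074. The untreated rise from 48 h to 8 d was 0.87 ± 0.25 (adjusted p = 0.017), and 0.70 with adjusted p = 0.11 without untreated rat 17.

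Contralateral Cdkn1a was 112, 151, 176, 182 and 267 in untreated rats at 6 h, 153, 158, 207 and 365 at 48 h, the highest being rat 18, and 206, 353, 457 and 521 at 8 d. After MRT the lowest, median and highest were 1707, 2707 and 4027 at 6 h, 1906, 2360 and 3535 at 48 h, and 1700, 2052 and 2514 at 8 d, with 1533, 1568, 1644 and 1834 at 15 d. After BB they were 1473, 1753 and 2396 at 6 h, with 1583, 1693 and 2192 at 48 h, 946, 1057, 1184 and 1312 at 8 d, and 629, 667, 696 and 706 at 15 d. No irradiated array overlapped with the untreated arrays of its time, and at 15 d the BB arrays, the lowest at 629, still lay above every untreated array of the earlier times. The rise after MRT was 3.92 ± 0.19 at 6 h (15.1-fold, adjusted p = 2e-22), 3.59 ± 0.21 at 48 h (12.1-fold) and 2.50 ± 0.22 at 8 d (5.65-fold). After BB it was 3.39 ± 0.21 (10.5-fold), 3.13 ± 0.26 (8.73-fold) and 1.62 ± 0.24 (3.08-fold). Without rat 18 the 48 h differences were 3.86 and 3.40. Untreated contralateral Cdkn1a rose by 0.81 ± 0.24 from 48 h to 8 d (adjusted p = 0.017). This call was lost without rat 28 (0.70, adjusted p = 0.057), without rat 30 (0.64, adjusted p = 0.075) and with the 9L markers as a covariate (0.60, adjusted p = 0.096). The dimmer Cdkn1a probe set differed by 3.80, 2.97 and 2.33 after MRT and by 3.39, 2.95 and 1.52 after BB in contralateral tissue, and by 0.21 (adjusted p = 0.81) in BB tumours at 8 d.

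Mdm2, the ligase of the feedback loop, rose in tumours at 6 h and 48 h and in contralateral tissue at all 3 times. Untreated tumours read 919, 1187, 1302, 1319 and 1378 at 6 h, 1095, 1420, 1605 and 1674 at 48 h, and 1751, 1845, 1854 and 1962 at 8 d. MRT tumours had a lowest, median and highest value of 1832, 2908 and 3667 at 6 h, 1850, 2431.5 and 2810 at 48 h, and 1758, 1817 and 2223 at 8 d, with 1546, 1722, 1795 and 2549 at 15 d. BB tumours had 2291, 2539 and 2906 at 6 h, and 2156, 2210, 2334 and 2604 at 48 h, 1773, 1788, 1808 and 2194 at 8 d, and 1697, 1804, 1825 and 2039 at 15 d. Irradiated and untreated tumours were apart at 6 h and 48 h and overlapped at 8 d. The differences were 1.12 ± 0.12, 0.74 ± 0.13 and 0.06 ± 0.14 (95% interval -0.21 to 0.34) after MRT, and 1.07 ± 0.13, 0.70 ± 0.16 and 0.02 ± 0.16 (-0.29 to 0.34) after BB. The BB call at 48 h was lost without untreated rat 17 (0.57, adjusted p = 0.063), and the dimmest of the 3 Mdm2 probe sets gave -0.10 there (adjusted p = 0.92).

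In contralateral tissue untreated Mdm2 was 556, 570, 601, 619 and 641 at 6 h, 387, 594, 601 and 649 at 48 h, and 627, 633, 648 and 692 at 8 d. MRT gave a lowest, median and highest value of 1034, 1458 and 1813, then 1119, 1223 and 1406, then 1350, 1580.5 and 1684, and 898, 932, 1059 and 1141 at 15 d. BB gave 1366, 1478.5 and 1606 at 6 h, then 873, 990 and 1029, then 873, 933, 1065 and 1067, and 753, 810, 872 and 1031 at 15 d. All irradiated arrays lay above all untreated ones. The rise after MRT was 1.26 ± 0.10, 1.17 ± 0.11 and 1.26 ± 0.11 at the 3 times, near 2.4-fold at 6 h, and after BB 1.31 ± 0.11, 0.81 ± 0.14 and 0.59 ± 0.13 (adjusted p = 0.004 at 8 d). Without rat 18, whose value of 387 was the lowest, the 48 h differences were 1.01 and 0.65. From 8 d to 15 d after MRT, Mdm2 fell by 0.63 ± 0.11 in contralateral tissue (adjusted p = 0.0083, 0.0633% of all genes called between these times), but adjusted p was 0.12 without MRT rat 42.

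**Figure D2:**
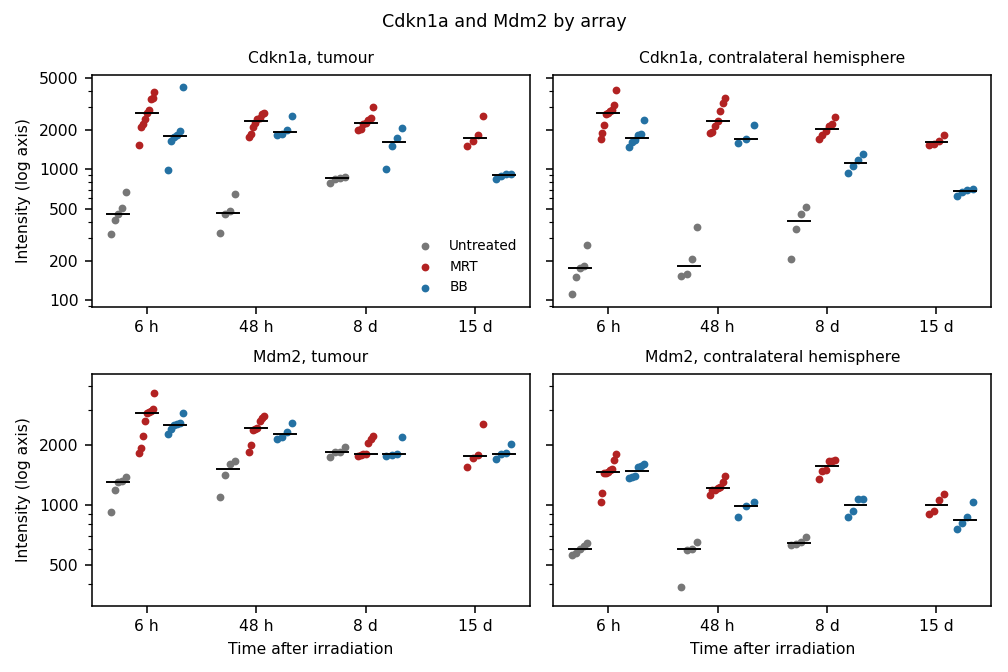
Intensity of Cdkn1a and Mdm2 on a log axis against time, with 1 point per array sorted within its group, a black bar at the group median, grey for untreated, red for MRT and blue for BB. All irradiated contralateral arrays lie above the untreated ones for both genes, and MRT lies above BB for Cdkn1a at 15 d in both tissues.

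Phlda3, a competitor of Akt for membrane lipids and so a brake on growth signalling, rose more in contralateral tissue than in tumour. In untreated tumours it was 577, 627, 770, 1012 and 1140 at 6 h, 480, 755, 881 and 907 at 48 h, and 955, 1026, 1123 and 1213 at 8 d. MRT tumours spanned 767 to 1847 at 6 h (median 1493), 893 to 1469 at 48 h (1301) and 592 to 1160 at 8 d (943), and BB tumours 478 to 2401 at 6 h (1195.5), 1126 to 1557 at 48 h and 529 to 834 at 8 d. The groups overlapped at each time except BB at 48 h, where BB lay above, and BB at 8 d, where it lay below. The difference after MRT was 0.77 ± 0.21 at 6 h (adjusted p = 0.046), 0.77 ± 0.23 at 48 h (adjusted p = 0.062) and -0.36 ± 0.24 at 8 d, and none of the BB differences, 0.50, 0.86 and -0.60, was called. The single tumour call was lost without untreated rat 2, 4 or 5 (0.75, 0.68 and 0.65, with adjusted p of 0.12, 0.20 and 0.16).

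Contralateral Phlda3 was 164, 196, 203, 204 and 298 in untreated rats at 6 h, 158, 182, 184 and 306 at 48 h, and 166, 190, 203 and 233 at 8 d. MRT raised the lowest, median and highest values to 838, 1004 and 1150 at 6 h, 815, 969 and 1145 at 48 h, and 636, 834 and 1033 at 8 d, with 702, 736, 783 and 937 at 15 d. BB gave 502, 885.5 and 1019 at 6 h, then 614, 661 and 704, then 253, 309, 367 and 435, and 331, 341, 360 and 419 at 15 d. No irradiated array overlapped with the untreated arrays of its time, and MRT and BB arrays of the same time were apart from 48 h on. The rise was 2.25 ± 0.15, 2.24 ± 0.17 and 2.06 ± 0.17 after MRT (4.18-fold at 8 d, adjusted p = 2.9e-13) and 1.90 ± 0.16, 1.72 ± 0.20 and 0.77 ± 0.19 after BB (1.70-fold at 8 d, adjusted p = 0.01). Without BB rat 57, whose 9L markers were at 8.95, the BB value at 8 d was 0.64 with adjusted p = 0.066. Like the windows of Mdm2, Sesn2, Plk2 and Plk3, that of Phlda3 held no half-site match.

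Ccng1, cyclin G1, a partner of the phosphatase that acts on Mdm2, rose in both tissues and was the gene with the largest difference in MRT tumours at 8 d. Untreated tumours read 984, 1446, 1736, 1988 and 2075 at 6 h, 1372, 1479, 2000 and 2115 at 48 h, and 1011, 1049, 1228 and 1518 at 8 d. MRT tumours had a lowest, median and highest value of 2000, 4669 and 5854 at 6 h, 1977, 4197.5 and 5590 at 48 h, and 2403, 3557 and 5423 at 8 d, with 1473, 1578, 1708 and 3223 at 15 d. BB tumours had 2754, 4392 and 7459 at 6 h, and 2118, 2419, 2506 and 3155 at 48 h, 971, 2184, 2688 and 3653 at 8 d, and 1898, 2189, 2475 and 2716 at 15 d. The lowest MRT tumours overlapped with untreated ones at 6 h and 48 h, and none did at 8 d. The difference after MRT was 1.40 ± 0.25, 1.17 ± 0.27 and 1.65 ± 0.28 (3.14-fold at 8 d, adjusted p = 4.1e-06). The 48 h value was 1.07 without untreated rat 15 and 1.10 without rat 16 (adjusted p = 0.05 and 0.073). After BB it was 1.41 ± 0.27 at 6 h, 0.56 ± 0.32 at 48 h, which was not called, and 0.85 ± 0.32 at 8 d (adjusted p = 0.044). The BB call at 8 d was lost when any of BB rats 54, 55 and 56 or untreated rats 27, 28 and 30 was left out, with values from 0.59 to 0.87 and adjusted p from 0.072 to 0.23. From 8 d to 15 d after MRT, tumour Ccng1 fell by 0.98 ± 0.28 (adjusted p = 0.0081, 27.9% of all genes called between these times).

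Contralateral Ccng1 was 2166, 2572, 2663, 2688 and 3052 in untreated rats at 6 h, 236, 2270, 2320 and 2490 at 48 h, the value of 236 being rat 18, and 2565, 2579, 2775 and 2860 at 8 d. MRT gave 3236 to 5790 at 6 h (median 4817), 4201 to 5637 at 48 h (4938), 4483 to 5604 at 8 d (4839.5) and 2957, 3304, 3667 and 4504 at 15 d. BB gave 5412 to 6472 at 6 h (median 5964), then 4911, 5233 and 5245, then 3078, 3161, 3358 and 3826, and 3429, 3528, 3569 and 3578 at 15 d. Irradiated arrays lay above the untreated ones at every time. The rise after MRT was 0.88 ± 0.24 at 6 h (adjusted p = 0.013), 1.91 ± 0.28 at 48 h and 0.87 ± 0.28 at 8 d (adjusted p = 0.046), and after BB 1.18 ± 0.27, 1.95 ± 0.34 and 0.31 ± 0.31 (adjusted p = 0.64). Without rat 18 the 48 h values were 1.08 after MRT and 1.12 after BB, both called. The 6 h MRT value was 0.81 with adjusted p = 0.05 without untreated rat 3. At 8 d the MRT call was lost without untreated rat 28, 29, 30 or 39 (0.85 to 0.90, adjusted p from 0.076 to 0.11) and with the 9L markers as a covariate (0.80, adjusted p = 0.086). The error of this gene in contralateral tissue is widened by rat 18 in each comparison fitted with it.

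Of the sestrins, stress-induced regulators that restrain mTORC1 and limit oxidative damage, Sesn2 rose and Sesn1 did not. Sesn2 in untreated tumours was 367, 392, 433, 453 and 471 at 6 h, 325, 404, 470 and 610 at 48 h, and 691, 773, 871 and 989 at 8 d. MRT tumours had 520, 1133 and 1540 as lowest, median and highest at 6 h, 652, 891.5 and 1337 at 48 h, and 759, 873 and 1004 at 8 d, with 772, 803, 821 and 891 at 15 d. BB tumours had 398, 725.5 and 1038 at 6 h, and 828, 963, 1029 and 1145 at 48 h, 562, 571, 580 and 813 at 8 d, and 491, 508, 560 and 650 at 15 d. Irradiated tumours of 8 d overlapped with the untreated ones, which had themselves risen by 0.90 ± 0.25 since 48 h (adjusted p = 0.012, and 0.76 with adjusted p = 0.084 without untreated rat 17). The difference was 1.26 ± 0.19, 1.04 ± 0.21 and 0.08 ± 0.22 after MRT and 0.70 ± 0.21 (adjusted p = 0.018), 1.16 ± 0.25 and -0.40 ± 0.25 after BB.

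Contralateral Sesn2 was 237, 239, 287, 317 and 349 in untreated rats at 6 h, 254, 269, 277 and 433 at 48 h, with rat 18 the highest, and 267, 272, 302 and 341 at 8 d. MRT gave 507, 783 and 1015 as lowest, median and highest at 6 h, 560, 603 and 718 at 48 h, 549, 708 and 859 at 8 d, and 536, 540, 577 and 655 at 15 d. BB gave 481, 585.5 and 724 at 6 h, then 411, 431 and 471, then 312, 339, 351 and 381, and 293, 320, 337 and 374 at 15 d. After MRT no array overlapped with the untreated ones, while BB arrays overlapped with them at 48 h and 8 d. The rise was 1.47 ± 0.13, 1.06 ± 0.15 and 1.27 ± 0.15 after MRT and 1.04 ± 0.14, 0.54 ± 0.18 (adjusted p = 0.029) and 0.23 ± 0.17 (adjusted p = 0.48) after BB. Without rat 18 the 48 h values were 1.23 and 0.71. The BB call at 48 h was lost without BB rat 50, 51 or 52 or untreated rat 15 (0.46 to 0.58, adjusted p from 0.057 to 0.11). The other Sesn2 probe set is dim and gave smaller values, between -0.06 and 0.42 in the 6 comparisons of MRT with untreated samples, of which the 48 h tumour difference was called (0.42, adjusted p = 0.043).

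Sesn1 showed no rise in any comparison with untreated samples. In tumours its difference was 0.01 ± 0.18 at 6 h after MRT and 0.08 ± 0.19 after BB, and the MRT tumours of 8 d spanned 237 to 571 (median 367) beside 431, 495, 521 and 568 in untreated ones, a fall of 0.48 ± 0.20 (adjusted p = 0.041). This call was lost without untreated rat 27, 28 or 29 (-0.42, -0.46 and -0.49, with adjusted p of 0.12, 0.086 and 0.065). In contralateral tissue it fell at 8 d. Untreated arrays read 714, 861, 997 and 1002 there, MRT arrays 509 to 605 (median 589.5) and BB arrays 567, 597, 642 and 672, so that no irradiated array reached the untreated range. The fall was 0.62 ± 0.12 after MRT (adjusted p = 0.00013) and 0.52 ± 0.13 after BB (adjusted p = 0.011, and 0.064 without untreated rat 28, with a difference of -0.46). The untreated arrays had risen by 0.46 ± 0.13 from 48 h to 8 d (adjusted p = 0.012), from 510, 607, 618 and 908. The dimmer Sesn1 probe set gave -0.58 and -0.42 at 8 d in contralateral tissue, and 0.00 in MRT tumours, with no call.

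Aen, an exonuclease that p53 induces and that takes part in apoptotic DNA breakdown, rose in each of the 12 comparisons with untreated samples. In untreated tumours it was 185, 200, 214, 229 and 239 at 6 h, 177, 209, 252 and 277 at 48 h, and 233, 234, 255 and 274 at 8 d. The lowest, median and highest MRT tumours were at 477, 550 and 760 at 6 h, 387, 522 and 561 at 48 h, and 353, 460 and 539 at 8 d, with 275, 276, 288 and 305 at 15 d. BB tumours were at 379, 495.5 and 819 at 6 h, and at 400, 424, 444 and 490 at 48 h, 330, 340, 390 and 435 at 8 d, and 233, 245, 245 and 249 at 15 d. Up to 8 d no irradiated tumour reached down to the untreated range of its time, and at 15 d the BB tumours lay within the range that untreated tumours had at 8 d, while the MRT tumours lay just above it. The rise was 1.40 ± 0.12, 1.15 ± 0.14 and 0.85 ± 0.14 after MRT and 1.26 ± 0.14, 0.96 ± 0.16 and 0.58 ± 0.16 after BB (adjusted p = 0.0074 at 8 d). From 8 d to 15 d it fell by 0.64 ± 0.14 after MRT (adjusted p = 0.00073) and by 0.61 ± 0.16 after BB (adjusted p = 0.028, 1.7% of all genes called), the latter not called in 7 of 8 analyses that left out 1 tumour of BB rats 54, 55, 56, 58, 59, 60 or 61 (-0.54 to -0.66, adjusted p from 0.05 to 0.13) and at -0.12 on the dimmer probe set (adjusted p = 0.77).

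Contralateral Aen was 123, 144, 147, 149 and 163 in untreated rats at 6 h, 128, 147, 195 and 275 at 48 h, with rat 18 the highest, and 125, 132, 156 and 164 at 8 d. MRT gave a lowest, median and highest value of 448, 624 and 750 at 6 h, 368, 435 and 516 at 48 h, and 364, 390 and 420 at 8 d, with 290, 300, 321 and 330 at 15 d. BB gave 523, 578.5 and 609 at 6 h, then 324, 342 and 373, then 263, 273, 283 and 292, and 169, 198, 207 and 209 at 15 d. All irradiated arrays were above the untreated ones of their time. The rise after MRT was 2.06 ± 0.11 at 6 h (4.18-fold), 1.27 ± 0.13 at 48 h and 1.45 ± 0.13 at 8 d, and after BB 1.98 ± 0.12, 0.96 ± 0.15 and 0.95 ± 0.14. Without rat 18 the 48 h values were 1.47 and 1.16. The dimmer Aen probe set rose at all 3 times after MRT in both tissues (0.49 to 1.47), and after BB at 6 h (0.96 in contralateral tissue and 0.83 in tumour) but not at 48 h or 8 d.

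**Figure D3:**
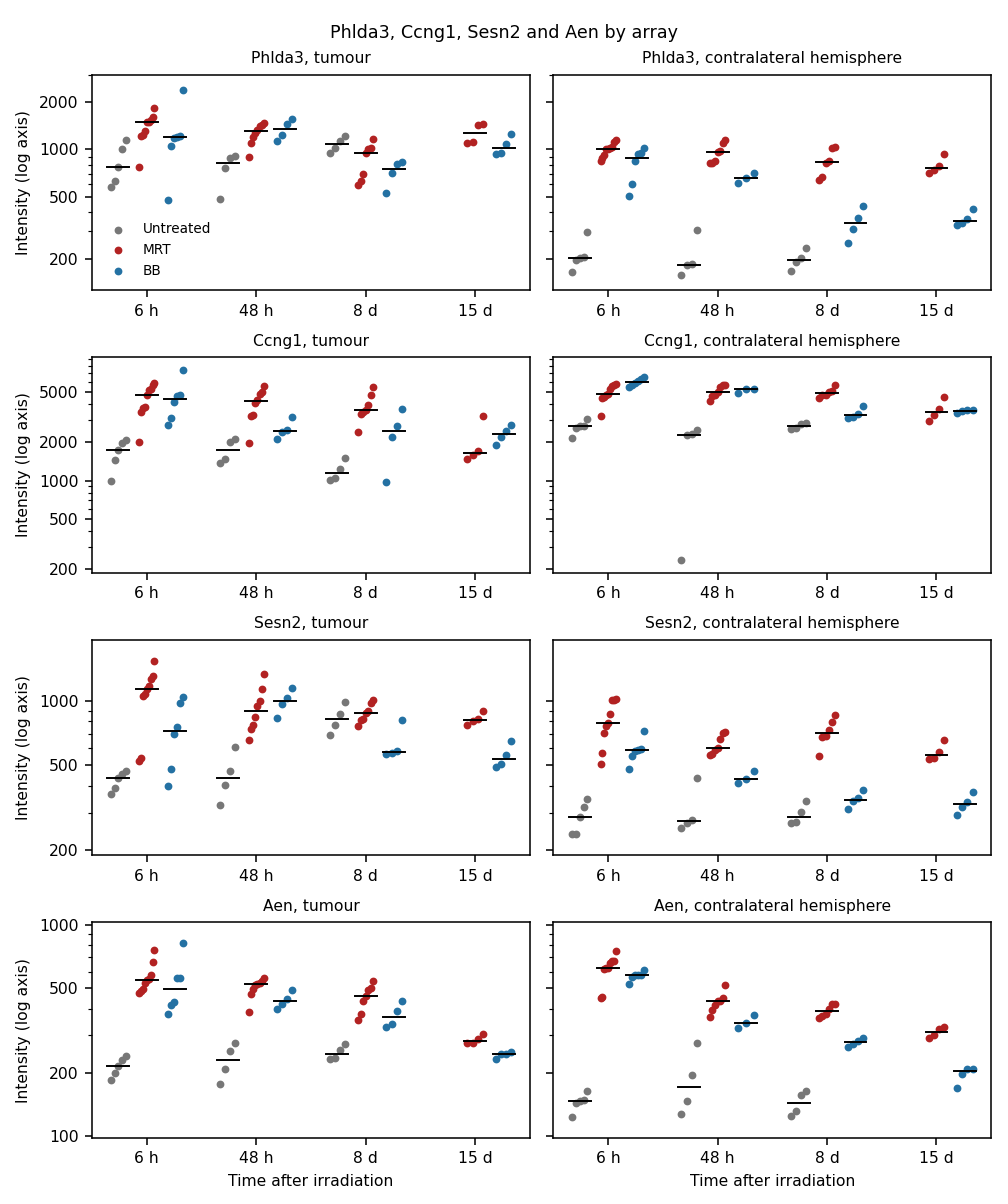
Intensity of Phlda3, Ccng1, Sesn2 and Aen on a log axis against time, with 1 point per array sorted within its group and a black bar at the group median. Contralateral Phlda3, Sesn2 and Aen show MRT above BB at 8 d and 15 d, tumour Sesn2 of MRT rats at 8 d spans 759 to 1004 beside 691 to 989 in untreated rats, and the single low Ccng1 point of 236 is rat 18.

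Tp53inp1, a stress protein that promotes p53 phosphorylation and autophagy, was dim, with a mean intensity at percentile 12.4 of all genes, and how far it lies above background is not known. In tumours it was 20, 24, 24, 25 and 29 untreated at 6 h against 30, 41 and 56 (lowest, median and highest) after MRT and 25, 35 and 47 after BB. At 8 d untreated tumours read 24, 25, 26 and 30, MRT tumours 32, 42 and 57 in the same order, and BB tumours 25, 29, 37 and 38. MRT tumours lay above untreated ones at each time while BB tumours overlapped with them. The difference after MRT was 0.78 ± 0.14, 0.66 ± 0.16 and 0.72 ± 0.16 (adjusted p = 0.00022 at 8 d), and after BB 0.54 ± 0.15 at 6 h (adjusted p = 0.012) and 0.28 ± 0.18 at both later times, not called. At 48 h the MRT call was lost without untreated rat 17 (0.64, adjusted p = 0.053). Contralateral differences were 0.83 ± 0.14, 0.44 ± 0.16 and 0.57 ± 0.17 after MRT and 0.44 ± 0.16, 0.53 ± 0.20 and 0.25 ± 0.18 after BB, the last not called. Of these 5 contralateral calls, 4 were lost when single arrays were left out. At 48 h after MRT these were untreated rats 16 and 17 (0.29 each, adjusted p = 0.17). At 8 d after MRT they were untreated rats 28 and 29 (0.52 and 0.50, adjusted p = 0.095 and 0.087). At 6 h after BB they were untreated rats 2, 3 and 5 (0.43, 0.32 and 0.43, adjusted p of 0.067, 0.19 and 0.059). At 48 h after BB they were BB rats 50, 51 and 52 and untreated rats 16, 17 and 18 (0.38 to 0.64, adjusted p from 0.068 to 0.14).

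Plk2 and Plk3, polo-like kinases that act in the stress checkpoint and in synaptic plasticity, did not share the response. Plk2 was bright in both tissues, with 2214, 2533, 2823, 2962 and 3186 in untreated tumours at 6 h beside 2158 to 3033 (median 2614) after MRT and 1928 to 3359 (2566.5) after BB. The MRT difference in tumour was -0.06 ± 0.14 (95% interval -0.35 to 0.23) at 6 h, then -0.23 ± 0.16 and -0.28 ± 0.16, while the BB difference was -0.10, -0.21 and -0.36. Without BB rat 56, whose value of 3846 was the highest, the BB difference at 8 d was -0.68 with adjusted p = 0.0029. In contralateral tissue a call at 48 h after MRT (0.78 ± 0.28, adjusted p = 0.028) rested on rat 18, which read 280 where the other untreated arrays read 3072, 3098 and 3221 and the MRT arrays 2712 to 3206. Without that array the difference was -0.09 with adjusted p = 0.56, and the BB difference went from 0.89 (adjusted p = 0.051) to 0.02. At 6 h after BB, Plk2 was 3470 to 3778 (median 3641.5) against 2889, 2995, 3041, 3086 and 3287 untreated, a difference of 0.25 ± 0.27 that was called when rat 18 was left out (0.25, adjusted p = 0.0042).

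Plk3 was dim, at percentile 23.0 of all genes. In tumours its differences lay between -0.13 and 0.25, none called. Contralateral arrays at 48 h read 80, 84, 113 and 123 untreated, 66 to 82 (median 70) after MRT and 69, 71 and 81 after BB, a fall of 0.46 ± 0.10 after MRT (adjusted p = 0.0012) and of 0.42 ± 0.13 after BB (adjusted p = 0.02). Without rat 18 the differences were -0.36 (adjusted p = 0.027) and -0.31 (adjusted p = 0.16), and the BB call was also lost without BB rat 51 (-0.37, adjusted p = 0.087) or BB rat 52 (-0.40, adjusted p = 0.07). Untreated contralateral Plk3 was 66, 74, 77, 77 and 90 at 6 h and 68, 73, 78 and 83 at 8 d, and the 48 h array at 80 lay within both of these ranges. The untreated change from 48 h to 8 d was -0.38 (adjusted p = 0.02), and -0.28 with adjusted p = 0.2 without rat 18.

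**Figure D4:**
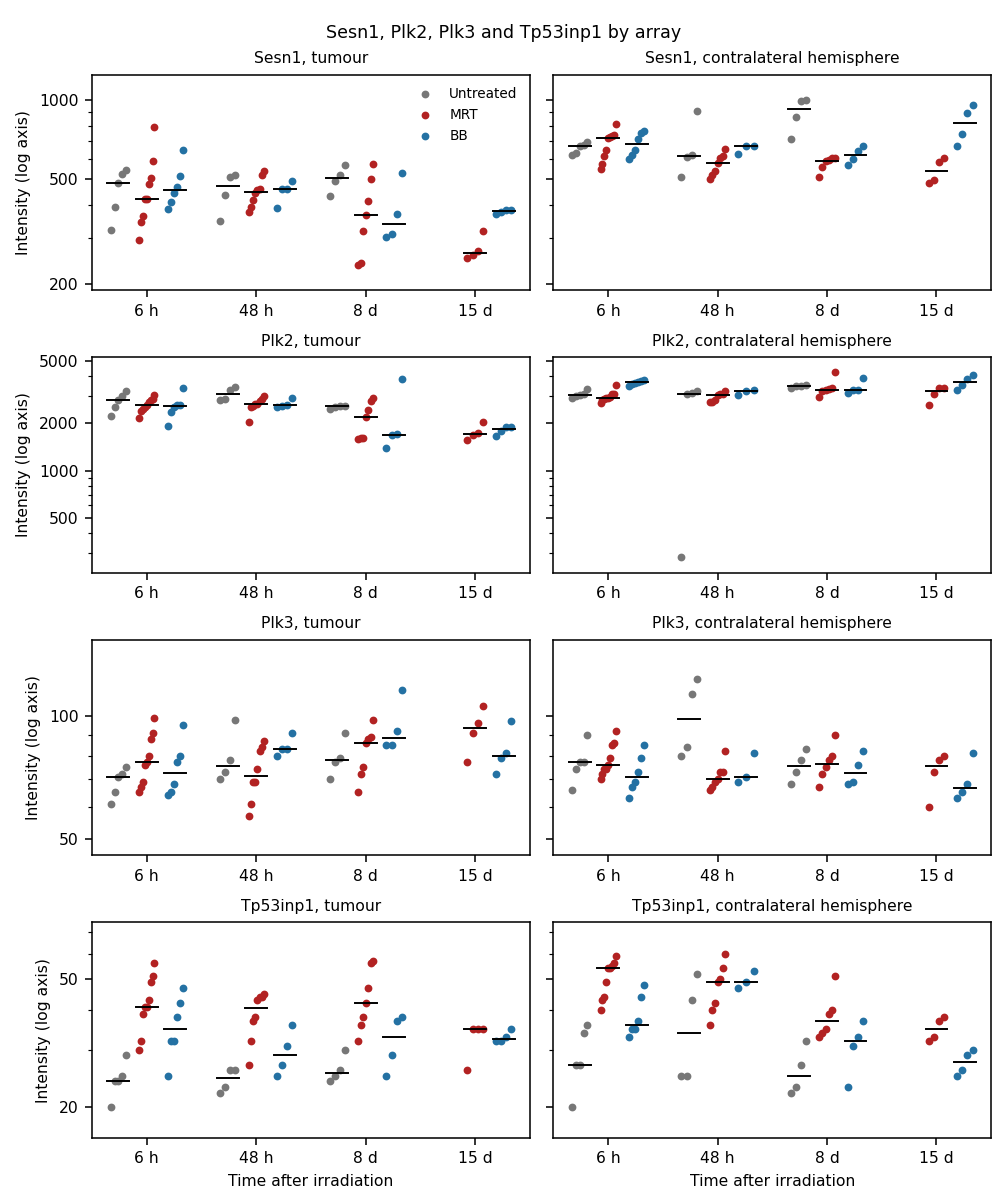
Intensity of Sesn1, Plk2, Plk3 and Tp53inp1 on a log axis against time, with 1 point per array sorted within its group and a black bar at the group median. Untreated contralateral Sesn1 at 8 d, 714 to 1002, lies above the irradiated arrays of that time, and the Plk2 point at 280 is rat 18.

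MRT was compared with BB at matched times, over 10 genes, 4 times and both tissues, with p-values adjusted over all genes of each comparison. In tumours Sesn2 was higher after MRT at 6 h (0.56 ± 0.18, adjusted p = 0.03, 15.7% of all genes called), though by 0.15 with adjusted p = 0.3 on its dimmer probe set, and Cdkn1a reached 0.49 ± 0.19 with adjusted p = 0.066 (95% interval 0.11 to 0.88). At 48 h limma called 0 members and 0% of all genes, with 515 of 14217 genes and 2 of the 10 members at an unadjusted p under 0.05. The Cdkn1a difference there was 0.14 (95% interval -0.30 to 0.58). At 8 d, with 1.27% called, limma called 0 members, 4 being at an unadjusted p under 0.05, and the largest differences were those of Ccng1 (0.80 ± 0.28, interval 0.24 to 1.36) and Cdkn1a (0.60 ± 0.23, interval 0.15 to 1.05). Without BB rat 55 these were 0.91 (adjusted p = 0.047) and 0.74 (adjusted p = 0.042). At 15 d Cdkn1a alone of the 10 was higher after MRT (1.04 ± 0.25, 2.06-fold, adjusted p = 0.014, 3.05% called), with all 4 MRT tumours above all 4 BB tumours. That call was lost without MRT rat 42 (0.89, adjusted p = 0.072), and the dimmer Cdkn1a probe set gave -0.20 (adjusted p = 0.92). Mdm2 differed by at most 0.05 between MRT and BB tumours at the 4 times, with intervals between -0.29 and 0.34.

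Contralateral tissue separated both treatments at the later times. At 6 h Sesn2 was higher after MRT (0.43 ± 0.12, adjusted p = 0.032, 5.39% of all genes called) and Cdkn1a reached 0.53 ± 0.18 (adjusted p = 0.064). Without rat 18, which belongs to neither group, Cdkn1a (0.53, adjusted p = 0.026), Tp53inp1 (0.39, adjusted p = 0.043), Ccng1 (-0.30, adjusted p = 0.016) and Plk2 (-0.30, adjusted p = 0.0015) were called too. At 48 h, with 1.94% called, limma called 0 members, 4 being at an unadjusted p under 0.05, and Sesn2 (0.52 ± 0.16, adjusted p = 0.082) and Phlda3 (0.52 ± 0.18, adjusted p = 0.15) had the largest differences. With that array left out, the Sesn2 difference (adjusted p = 0.037) and that of Mdm2 (0.36, adjusted p = 0.043) were called. At 8 d, with 3.02% called, 5 members were higher after MRT: Phlda3 by 1.30 ± 0.17 (2.46-fold, adjusted p = 8.1e-07), Sesn2 by 1.04 ± 0.15, Cdkn1a by 0.88 ± 0.22, Mdm2 by 0.66 ± 0.11 and Aen by 0.50 ± 0.13. For each of the 5, all 6 MRT arrays lay above all 4 BB arrays. The 5 were called on these same arrays. The share of all genes separated in this way is not given, here or at 15 d. Ccng1 differed by 0.56 with adjusted p = 0.41, and with adjusted p = 0.00036 without rat 18. The Cdkn1a and Aen calls were lost without BB rat 54 (0.85, adjusted p = 0.067, and 0.49, adjusted p = 0.077) or BB rat 56 (0.80 and 0.47, adjusted p = 0.068 for each). At 15 d, with 5.87% called, Cdkn1a (1.28 ± 0.24, 2.44-fold), Phlda3 (1.12 ± 0.19), Sesn2 (0.80 ± 0.17) and Aen (0.67 ± 0.14) were higher after MRT and Sesn1 was lower (-0.58 ± 0.13), and for none of the 5 did the MRT and BB arrays overlap. Mdm2 was at 0.22 ± 0.13 (interval -0.03 to 0.47) by then, and without rat 18 Plk2 was called lower after MRT (-0.24, adjusted p = 0.037). The 9L markers of the BB arrays ranged from 6.42 to 8.95 at 8 d and from 7.35 to 10.37 at 15 d, and those of the MRT arrays from 7.06 to 7.45 and from 7.25 to 8.45. With these markers as a covariate the differences at 15 d were 1.48 for Cdkn1a, 1.29 for Phlda3, 0.92 for Sesn2, 0.78 for Aen and -0.68 for Sesn1, all called. Macrophage markers moved with these differences, at 8.42 to 8.68 after MRT and 6.76 to 8.15 after BB at 8 d, and 8.78 to 9.12 against 7.24 to 8.85 at 15 d, and their part in the result was not tested. On the dimmer probe sets the 8 d differences were 0.81 for Cdkn1a (adjusted p = 0.25), 0.53 for Aen (adjusted p = 0.11) and -0.03 for Sesn2, and those of both other Mdm2 probe sets were 1.00, called. At 15 d the dimmer probe sets gave 0.44 for Cdkn1a (adjusted p = 0.6), 0.27 for Aen (adjusted p = 0.52), 0.08 for Sesn2 (adjusted p = 0.84) and 0.10 for Sesn1 (adjusted p = 0.93), so none of these 4 calls was made on them. At 6 h the dimmer Sesn2 probe set gave 0.01 (adjusted p = 0.98), and that of Aen 0.51 (adjusted p = 0.027), where the brighter one was at 0.08.

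**Figure D5:**
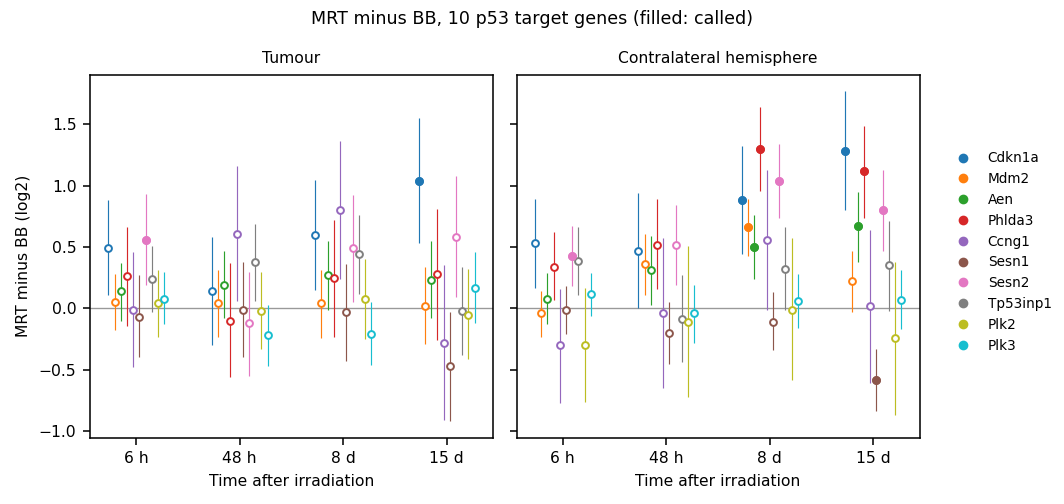
Log2 difference between MRT and BB for the 10 genes at 4 times, in tumour on the left and contralateral tissue on the right; bars are 95% confidence intervals and filled points had an adjusted p under 0.05. Filled points are Sesn2 at 6 h in both tissues, Cdkn1a at 15 d in tumour, and 5 genes each at 8 d and 15 d in contralateral tissue, of which Sesn1 at 15 d is negative.

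Within each treatment, levels were also compared between neighbouring times. In untreated tumours limma called 0 members and 0% of all genes from 6 h to 48 h, with 0 members and 536 of 14217 genes at an unadjusted p under 0.05, and from 48 h to 8 d (18.2% of all genes) it called the rises of Cdkn1a and Sesn2 given above. In MRT tumours 0 members were called by limma from 6 h to 48 h (9.77%), none of them at an unadjusted p under 0.05. From 48 h to 8 d (30.8%) Mdm2 fell by 0.31 ± 0.11 and Phlda3 by 0.57 ± 0.20. On the dimmer probe sets the changes of MRT tumour Mdm2 from 48 h to 8 d were -0.03 and -0.19 (adjusted p = 0.97 and 0.54). Those from 8 d to 15 d were -1.07 and -0.69 (adjusted p = 0.034 and 0.023), where the brightest probe set gave -0.05. From 8 d to 15 d Tp53inp1, beside Aen and Ccng1, fell by 0.41 ± 0.16 (adjusted p = 0.049), a call lost without any single 15 d tumour of rats 40, 41, 42 and 43 (-0.44 to -0.30, adjusted p from 0.052 to 0.19). In BB tumours 0 members were called by limma from 6 h to 48 h (23.5%), 2 being at an unadjusted p under 0.05. Phlda3 then fell by 0.92 ± 0.27 to 8 d (10.5%, adjusted p = 0.023), a call lost without BB rat 51, 52 or 55 (-0.84, -0.87 and -0.78, with adjusted p of 0.081, 0.054 and 0.13).

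In contralateral tissue the untreated arrays gave 3 calls from 6 h to 48 h (17.7%), Ccng1 at -0.98 ± 0.29, Plk2 at -0.84 ± 0.30 and Plk3 at 0.36 ± 0.11. Without rat 18 there were 0, with Ccng1 at -0.15 (adjusted p = 0.68), Plk2 at 0.03 (adjusted p = 0.92) and Plk3 at 0.26 (adjusted p = 0.38). From 48 h to 8 d (22.9%) 5 members were called, and Ccng1 (1.02 ± 0.31) and Plk2 (1.01 ± 0.31) went to 0.19 (adjusted p = 0.44) and 0.14 (adjusted p = 0.42) without that array. After MRT, Aen fell by 0.50 ± 0.10 from 6 h to 48 h (12.5%), and from 48 h to 8 d limma called 0 members (0.359%), 1 being at an unadjusted p under 0.05. After BB, Mdm2 fell by 0.62 ± 0.13 and Aen by 0.73 ± 0.14 from 6 h to 48 h (3.15%), and Phlda3 by 0.98 ± 0.20 from 48 h to 8 d (0.106%, adjusted p = 0.021). That Phlda3 call was lost without BB rats 50, 51, 52, 54 or 55 (-1.03 to -0.84, adjusted p from 0.089 to 0.22). From 8 d to 15 d after BB limma called 0 members (1.17%), 3 being at an unadjusted p under 0.05. Leaving out rat 18, an array of none of the irradiated groups, added calls between times. After MRT these were Mdm2 (-0.21), Sesn1 (-0.24) and Sesn2 (-0.32) from 6 h to 48 h, with adjusted p of 0.045, 0.026 and 0.032. Mdm2 from 48 h to 8 d (0.33, adjusted p = 0.047) and Ccng1 from 8 d to 15 d (-0.46, adjusted p = 0.02) were the others after MRT. After BB they were Ccng1 from 48 h to 8 d (-0.62, adjusted p = 0.012), and Aen (-0.51), Cdkn1a (-0.73) and Sesn1 (0.39) from 8 d to 15 d, with adjusted p of 0.012, 0.048 and 0.039.

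For several members the difference between irradiated and untreated samples was lower at 8 d than at 6 h, as tested by the difference of the differences. Not each of these is a rise that became smaller. Mean tumour Phlda3 went from above untreated at 6 h to below it at 8 d, as did Sesn2 in BB tumours. Contralateral Sesn1 after MRT fell at 8 d and was not called at 6 h. In MRT tumours, with 27.5% of all genes called, the difference was lower by 1.07 ± 0.30 for Cdkn1a, 1.06 ± 0.18 for Mdm2 and 1.12 ± 0.32 for Phlda3. It was lower by 1.17 ± 0.29 for Sesn2 and 0.55 ± 0.19 for Aen. In BB tumours (14.6% called) the same 5 genes were called, lower by 1.17 ± 0.34, 1.05 ± 0.20, 1.11 ± 0.35, 1.10 ± 0.32 and 0.68 ± 0.21 in that order. MRT and BB share their untreated arrays here, and part of each change lies in these arrays. From 6 h to 8 d mean log2 in untreated tumours went from 8.842 to 9.724 for Cdkn1a and from 8.719 to 9.686 for Sesn2. It went from 10.239 to 10.854 for Mdm2, from 9.638 to 10.070 for Phlda3 and from 7.731 to 7.957 for Aen. In MRT tumours Cdkn1a went from 11.370 to 11.183 and Sesn2 from 9.978 to 9.770. Mdm2 went there from 11.359 to 10.917, Phlda3 from 10.405 to 9.713 and Aen from 9.132 to 8.804. The change for Ccng1 in MRT tumours was 0.25 ± 0.37 (95% interval -0.50 to 1.00). Contralateral tissue gave 3 calls after MRT (3.61% of all genes), Cdkn1a by -1.42 ± 0.29, Sesn1 by -0.66 ± 0.15 and Aen by -0.61 ± 0.17, and 5 after BB (1.96%), Cdkn1a by -1.77 ± 0.32, Phlda3 by -1.14 ± 0.25, Aen by -1.03 ± 0.19, Sesn2 by -0.81 ± 0.22 and Mdm2 by -0.71 ± 0.17. Between 6 h and 48 h the effect on Aen already fell, by 0.80 ± 0.17 after MRT (9.33% called, Plk3 being the other member) and by 1.03 ± 0.19 after BB (9.35%), while limma called 0 members in tumours (0.239% of all genes after MRT and 7.51% after BB), with 1 member at an unadjusted p under 0.05 after each treatment. The Aen calls in tumour were lost without untreated rat 5 (-0.50 after MRT with adjusted p = 0.058, -0.63 after BB with 0.054) and without untreated rat 27 (-0.51 with 0.066, -0.64 with 0.063), and that after BB also without BB rat 54 (-0.64 with 0.055). The contralateral Aen call at 8 d after MRT was lost without untreated rat 5, 29 or 30 (-0.55, -0.57 and -0.55, adjusted p of 0.069, 0.067 and 0.10). The Phlda3 call in BB tumours was lost without 6 single tumours, those of BB rats 54 and 55 and untreated rats 4, 5, 27 and 28 (-0.97 to -1.11, adjusted p from 0.05 to 0.075), and the contralateral Sesn2 call after BB without BB rats 54 and 56 and untreated rats 2, 5, 29 and 30 (-0.74 to -0.80, adjusted p from 0.059 to 0.094). Without rat 18 the Plk3 value was -0.39 with adjusted p = 0.10. Without it the BB effect also changed for Mdm2 from 6 h to 48 h (-0.66, adjusted p = 0.011, against -0.49 and 0.06 with it). From 6 h to 8 d it changed without that array for Ccng1 (-0.87, adjusted p = 0.00014, against 0.34 with it) and Sesn1 (-0.57, adjusted p = 0.016, against 0.062). On the dimmer probe sets the tumour changes from 6 h to 8 d were not called for Cdkn1a (-1.22 after MRT and -1.77 after BB, adjusted p = 0.16 and 0.091), Aen (-0.29 and -0.52, adjusted p = 0.41 and 0.19) or Sesn2 (-0.13 and -0.28, adjusted p = 0.58 and 0.28).

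The rise of Cdkn1a, Aen and Phlda3 was smaller in tumour than in the contralateral hemisphere at 6 h. Mean log2 at 6 h in tumour and contralateral tissue was 8.842 and 7.415 untreated and 11.370 and 11.334 after MRT for Cdkn1a. For Phlda3 it was 9.638 and 7.706 untreated and 10.405 and 9.953 after MRT. For Aen it was 7.731 and 7.176 untreated and 9.132 and 9.240 after MRT. After BB it was 10.875 and 10.805 for Cdkn1a, 10.143 and 9.609 for Phlda3 and 8.994 and 9.160 for Aen. The irradiation effect differed between tissues by -1.39 ± 0.28 for Cdkn1a, -0.66 ± 0.17 for Aen and -1.48 ± 0.26 for Phlda3 after MRT (0.886% of all genes called), and -1.36 ± 0.30, -0.72 ± 0.18 and -1.40 ± 0.28 after BB (1.53%). At 48 h after MRT (2.48%) Cdkn1a (-1.31 ± 0.31) and Phlda3 (-1.47 ± 0.29) were called. With the rat as a block Plk2 was called too (-1.01, adjusted p = 0.028), but with the block and without rat 18 it was at -0.14 (adjusted p = 0.92). At 48 h after BB (5.7%) limma called 0 members, 6 being at an unadjusted p under 0.05, but with the rat as a block 4 were called, Cdkn1a (adjusted p = 0.04), Ccng1 at -1.41 (adjusted p = 0.026), Plk2 at -1.10 (adjusted p = 0.033) and Plk3 at 0.51 (adjusted p = 0.044). With the block and without rat 18, Ccng1 (-0.56, adjusted p = 0.39), Plk2 (-0.22, adjusted p = 0.62) and Plk3 (0.41, adjusted p = 0.21) were not called, while Cdkn1a (-1.28, adjusted p = 0.025) and Phlda3 (-1.04, adjusted p = 0.047) were. At 8 d after MRT (37%) the effect was lower in tumour for Phlda3 (-2.42 ± 0.30), Mdm2 (-1.20 ± 0.18), Sesn2 (-1.19 ± 0.27), Cdkn1a (-1.04 ± 0.32) and Aen (-0.60 ± 0.19). Of these, Phlda3, Mdm2 and Sesn2 were not called higher than untreated in MRT tumours of 8 d. At 8 d after BB (7.76%) the effect was lower in tumour for Phlda3 (-1.37 ± 0.33), and with the block or without rat 18 also for Mdm2 (-0.57, adjusted p = 0.031 and 0.041). Neither Phlda3 nor Mdm2 was called higher than untreated in BB tumours of 8 d. The Aen call at 6 h after MRT was lost without untreated contralateral rat 5 (-0.61, adjusted p = 0.073) and untreated tumours of rats 2 and 3 (-0.62 and -0.64, adjusted p = 0.062 and 0.053), the Cdkn1a call at 48 h without the untreated tumour of rat 16 (-1.15, adjusted p = 0.065), and that at 8 d without untreated contralateral rat 39 (-0.77, adjusted p = 0.058). Without rat 18, Ccng1 at 8 d after MRT was larger in tumour by 0.78 (adjusted p = 0.036). Neither the Cdkn1a nor the Aen call between tissues was made on the dimmer probe sets. They gave -1.08 and -0.28 at 6 h after MRT (adjusted p = 1 for each), -1.41 and -0.13 at 6 h after BB (adjusted p = 0.18 and 0.82), and -0.83 and 0.26 at 8 d after MRT (adjusted p = 0.3 and 0.47), with Cdkn1a at -0.44 at 48 h after MRT (adjusted p = 0.75). At 8 d after MRT that of Sesn2 gave -0.13 (adjusted p = 0.58), and those of Mdm2 -0.96 (adjusted p = 0.015) and -0.72 (adjusted p = 0.27).

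Both tissues also differed without irradiation. Over 13 untreated tumours and 13 untreated contralateral arrays, 8 members were called, with 81.1% of all genes called. Phlda3 was higher in tumour by 2.08 ± 0.13, Mdm2 by 1.31 ± 0.08, Cdkn1a by 1.27 ± 0.14, Sesn2 by 0.87 ± 0.12 and Aen by 0.56 ± 0.08, and Sesn1 (-0.64 ± 0.10), Ccng1 (-0.51 ± 0.18) and Tp53inp1 (-0.23 ± 0.10) were lower. The Tp53inp1 call was lost in 6 of 26 analyses that left out 1 array, to at most -0.17 with adjusted p = 0.12 without contralateral rat 15, and Plk2 (0.08) became -0.21 with adjusted p = 0.015 and Ccng1 -0.79 without rat 18. On the dimmer probe sets the untreated difference was -0.03 for Aen (adjusted p = 0.8) and 0.10 for Sesn2 (adjusted p = 0.2).

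Cell markers moved in the same groups. The shares of all genes called in tumours were 47.8% after MRT and 22.9% after BB at 8 d, and 2.35% and 2.6% at 48 h. In MRT tumours of 8 d all 8 macrophage and monocyte markers rose (median 2.19, group range 10.63 to 11.73 against 8.46 to 9.63 untreated), 5 of 6 9L markers fell (median -3.19, 8.21 to 11.32 against 12.58 to 12.68) and all 6 mitosis markers fell (median -1.69). All 7 T and NK cell markers (median 2.60), 8 of 10 neuron markers (1.43) and all 5 oligodendrocyte markers (1.53) rose there too. In BB tumours of 8 d, 4 of 8 macrophage markers rose and 3 of 6 9L markers fell. At 48 h 7 of 8 macrophage markers rose in MRT tumours (median 1.89) and 6 of 8 in BB tumours (1.63).

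The shares of all genes called in contralateral tissue at 6 h, 48 h and 8 d were 8.22%, 32.2% and 7.91% after MRT. After BB they were 21.6%, 21.6% and 5.94%, and the share in MRT tumours at 6 h was 1.42%. In contralateral tissue 7 of 8 macrophage markers rose at 48 h after MRT (median 1.95, 7.99 to 8.23 against 5.95 to 6.85 untreated) and 6 of 8 at 8 d (1.83, 8.42 to 8.68 against 6.77 to 7.10). After BB 4 rose at 48 h (0.77) and 2 at 8 d (0.49). At 6 h after MRT all 3 neutrophil markers rose in both tissues (median 2.25 in tumour and 2.82 in contralateral tissue), and after BB all 3 in contralateral tissue (0.92). In contralateral tissue at 6 h, 4 of 5 microglia markers fell after MRT (median -1.74, 5.93 to 7.62 against 8.08 to 8.23) and 3 of 5 after BB (-1.05). Of 4 endothelial markers, 3 fell there after MRT (median -1.16, 6.65 to 8.10 against 8.40 to 8.53) and 2 after BB (-0.78). At 48 h all 5 astrocyte markers rose after MRT (median 0.55) and 4 of 5 after BB (0.54), in a comparison that includes rat 18, the lowest untreated array at 10.07 beside a group median of 11.51. The part of these markers in the values of the 10 genes was not tested.

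Other genes of the p53 pathway came from a list of 41, of which 29 had a probe set of their own, and are given beside the share of all genes called. In MRT tumours 4 of 29 rose at 6 h (1.42% of all genes called), 4 at 48 h (2.35%), and 7 rose and 8 fell at 8 d (47.8%), with medians of 0.18, 0.16 and 0.06. In BB tumours 8 rose and 2 fell at 6 h (17.4%), 2 rose at 48 h (2.6%), and 1 rose and 4 fell at 8 d (22.9%). In contralateral tissue 12, 9 and 9 rose at the 3 times after MRT, with 1 fall at 8 d (8.22%, 32.2% and 7.91%), with medians of 0.32, 0.20 and 0.25. After BB 13, 4 and 2 rose, with 1 fall at 6 h and 1 at 8 d (21.6%, 21.6% and 5.94%), with medians of 0.39, 0.17 and 0.10. At 48 h the contralateral values of this list and of both lists that follow include rat 18.

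Fas, a death receptor, had the largest rise of the list at 6 h in contralateral tissue, at 3.13 ± 0.17 after MRT and 2.97 ± 0.18 after BB, and stayed at 2.29 ± 0.20 at 8 d after MRT. Gdf15, a secreted stress cytokine, was at 2.19 ± 0.32 in MRT tumours at 6 h and 2.01 ± 0.23 in contralateral tissue at 8 d after MRT. The autophagy gene Dram1 (1.78 ± 0.17), the growth-arrest gene Gadd45a (1.70 ± 0.22) and the noncoding RNA Pvt1 (1.30 ± 0.19) followed at 6 h after MRT in contralateral tissue. Bbc3, the apoptosis activator PUMA, rose in tumours at 6 h by 0.83 ± 0.14 after MRT and 0.81 ± 0.16 after BB. Ei24 rose at 48 h in contralateral tissue, by 1.07 ± 0.20 after MRT and 1.40 ± 0.25 after BB, and the repair endonuclease gene Ercc5 by 0.75 ± 0.18 after BB. Pidd1, a death-domain protein, rose by 0.87 ± 0.15 at 8 d after MRT in contralateral tissue and by 0.73 ± 0.21 at 48 h in BB tumours. The largest change of the list in MRT tumours at 8 d was the fall of Ikbip (-1.92 ± 0.26), and the checkpoint kinase gene Chek1 was at -1.55 ± 0.38. In BB tumours at 8 d Ikbip (-1.40 ± 0.29), Apaf1 of the apoptosome (-0.86 ± 0.28), Ercc5 (-0.65 ± 0.18) and the damage sensor gene Xpc (-0.49 ± 0.12) fell and Rps27l rose (1.22 ± 0.39). The transcriptional repressor gene Bcl6 was the one that fell at 8 d after BB in contralateral tissue (-0.38 ± 0.11).

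Paralogs of the members, 13 genes chosen for their sequence kinship, were called as follows. In MRT tumours 1 rose and 1 fell at 6 h (1.42% of all genes called), 1 rose at 48 h (2.35%), and 2 rose and 4 fell at 8 d (47.8%). In BB tumours 2 fell at 6 h (17.4%), limma called 0 at 48 h (2.6%) with 2 at an unadjusted p under 0.05, and 1 rose and 1 fell at 8 d (22.9%). In contralateral tissue 2, 4 and 2 rose at the 3 times after MRT (8.22%, 32.2% and 7.91%), and 1, 3 and 2 after BB with 1 fall at 8 d (21.6%, 21.6% and 5.94%). Isg20, the exonuclease related to Aen and known as an interferon-stimulated gene, rose in contralateral tissue by 1.37 ± 0.16, 1.05 ± 0.18 and 2.25 ± 0.19 at the 3 times after MRT, and in MRT tumours by 1.23 ± 0.25 at 48 h and 1.97 ± 0.26 at 8 d. Plk1, the mitotic relative of Plk2 and Plk3, fell in tumours at 6 h by 1.44 ± 0.31 after MRT and by 1.41 ± 0.34 after BB, and Plk4, of centriole duplication, by 1.63 ± 0.40 at 8 d after MRT. Phlda2 rose in MRT tumours at 6 h (0.71 ± 0.16), Phlda1 fell in contralateral tissue at 8 d after BB (-0.75 ± 0.19), and Mdm4, the partner of Mdm2, fell in BB tumours at 6 h (-0.63 ± 0.17). Cdkn1b, the p27 inhibitor next of kin to Cdkn1a, fell at 8 d in tumours, by 1.03 ± 0.15 after MRT and 0.95 ± 0.17 after BB. Cdkn1c rose at 8 d in contralateral tissue, by 1.00 ± 0.29 after MRT and 1.16 ± 0.31 after BB. Among the relatives of Ccng1, Ccng2 (0.67 ± 0.25 after MRT and 0.89 ± 0.30 after BB) and Ccni (0.56 ± 0.17 and 0.60 ± 0.20) rose in contralateral tissue at 48 h. Sesn3 rose there after MRT (0.51 ± 0.18) and fell in MRT tumours at 8 d (-0.62 ± 0.23).

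The next list held 17 cyclins, cyclin-dependent kinases and pocket proteins on which p21 acts or which follow it. Of these, limma called 0 in MRT tumours at 6 h and 48 h, with 3 and 2 at an unadjusted p under 0.05. The shares of all genes called there were also low, 1.42% and 2.35%. At 8 d after MRT 11 fell and 3 rose (median -1.25, with 47.8% of all genes called), among them Cdk1 (-1.72 ± 0.39) and Ccnb2 (-1.67 ± 0.41) below and Ccnd2 (2.14 ± 0.31) above. Cdk4 fell by 2.00 ± 0.31. In BB tumours Ccne2 (0.91 ± 0.27) and Pcna (0.44 ± 0.16) were the 2 called at 6 h, both higher (17.4%). At 8 d after BB 4 fell and 2 rose (22.9%), with Cdk2 at -1.35 ± 0.48, Cdk4 at -1.26 ± 0.35, Ccnd3 at -1.11 ± 0.30 and Ccnd2 at 1.14 ± 0.35. In contralateral tissue Ccnd1 was the one called at 6 h after MRT (0.91 ± 0.28, 8.22%). At 48 h after MRT 5 rose (32.2%), led by Ccna2 (1.55 ± 0.42), Ccnd1 (1.04 ± 0.32), Rbl1 (0.94 ± 0.25) and Ccnd2 (0.91 ± 0.20), and at 8 d Rb1 alone (0.45 ± 0.12, 7.91%). At 6 h after BB 3 rose and 1 fell (21.6%), Ccnd1 (1.26 ± 0.31), Ccnd2 (0.79 ± 0.19), Rb1 (0.50 ± 0.11) and Cdk2 (-0.66 ± 0.20).

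Likeness to Cdkn1a was described over the 11 group means of each tissue, which share their arrays' normalization and the untreated groups. In contralateral tissue Phlda3 had the highest Pearson r of all genes (0.950), Mdm2 was at 0.927, Aen at 0.906, Sesn2 at 0.883 and Ccng1 at 0.868, while Sesn1 (-0.444) and Plk3 (-0.500) went the other way. The closest genes outside the 10 were Pvt1 (0.936), Ubr7 (0.931), Sec23b (0.925), Gbp4 (0.911) and Fas (0.908). In tumour Aen (0.902), Mdm2 (0.879), Sesn2 (0.875) and Tp53inp1 (0.866) were closest among the 10, and Phlda3 was at 0.601. The closest others were Procr (0.961), Tmem185b (0.905), Il9r (0.893), Mcur1 (0.886) and Ccl2 (0.880).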

How the data were processed

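RNA of 59 tumours and 56 contralateral hemispheres was measured on 115 Affymetrix rat arrays. The authors deposited normalized linear intensities as whole numbers (7 to 27837), made with Affymetrix Expression Console, MAS5 and RMA per the submitters' processing notes; which step gave the final values is not given in the sources used here. A log2 scale had been assumed, so log2 of each deposited intensity was taken; rounding makes steps of up to 0.19 log2 at the lowest value. Of 31099 probe sets, 20826 carry 1 gene symbol, and the brightest per gene gave 14217 genes. Groups were compared with limma on group means, per tissue or over both tissues, with an intensity trend and Benjamini-Hochberg adjustment, called at an adjusted p under 0.05. The number of arrays limits the precision. Nothing in the labels says how rats were allocated. The members and lists were chosen with earlier results of these data known. All members were named, with the 5 largest called changes per comparison of the pathway and paralog lists, at most 4 of the cell-cycle list, and the 5 genes most like Cdkn1a per tissue. Tumour and hemisphere of the same rat come from the same animal: 38 of 55 such pairs correlated over 0.1 in their deviations (median 0.186, against -0.0393 for different rats), so fits over both tissues were repeated with the rat as a block. The limma steps were tested on simulated data.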

Additional observations from a re-analysis of the deposited data

Results flagged for a closer look

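Of 210 gene and group pairs tested for a single array far from the rest of its group, 13 were found, where chance gives about 1 in 20. The untreated contralateral array of rat 18 at 48 h gave 3 of them: Ccng1 at 236 (others 2270 to 2490), Plk2 at 280 (3072 to 3221) and Sesn2 at 433 (254 to 277). In tumours, Mdm2 of BB rat 57 at 8 d was 2194 (others 1773 to 1808) and Sesn2 of BB rat 55 at 8 d 813 (562 to 580). Among MRT tumours, Aen of rat 23 at 48 h was 387 (471 to 561), Phlda3 of rat 6 at 6 h 767 (1209 to 1847), Ccng1 of rat 10 at 6 h 2000 (3461 to 5854), Plk2 of rat 19 at 48 h 2028 (2534 to 3002) and Tp53inp1 of rat 41 at 15 d 26 (the others 35). In contralateral tissue after MRT, Ccng1 of rat 10 at 6 h was 3236 (4421 to 5790), Plk2 of rat 8 at 6 h 3505 (2705 to 3060) and Plk2 of rat 35 at 8 d 4209 (2949 to 3343).

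A difference between times or tissues in the effect of irradiation passed its own test in 35 of 140 cases. The shares of all genes called in these comparisons ranged from 0.239% to 37%. They were 27.5% and 14.6% from 6 h to 8 d in MRT and BB tumours, and 37% between tissues at 8 d after MRT. From 6 h to 8 d the log2 effect in MRT tumours changed by -1.07 for Cdkn1a, -1.06 for Mdm2, -0.55 for Aen, -1.12 for Phlda3 and -1.17 for Sesn2, and in BB tumours by -1.17, -1.05, -0.68, -1.11 and -1.10 for the same genes. In contralateral tissue it changed by -1.42 for Cdkn1a, -0.61 for Aen and -0.66 for Sesn1 after MRT, and by -1.77 for Cdkn1a, -0.71 for Mdm2, -1.03 for Aen, -1.14 for Phlda3 and -0.81 for Sesn2 after BB. From 6 h to 48 h it changed in contralateral tissue by -0.80 for Aen and -0.50 for Plk3 after MRT and by -1.03 for Aen after BB. Between tumour and contralateral tissue the MRT effect differed at 6 h by -1.39 for Cdkn1a, -0.66 for Aen and -1.48 for Phlda3, at 48 h by -1.31 for Cdkn1a and -1.47 for Phlda3, and at 8 d by -1.04 for Cdkn1a, -1.20 for Mdm2, -0.60 for Aen, -2.42 for Phlda3 and -1.19 for Sesn2. The BB effect differed at 6 h by -1.36 for Cdkn1a, -0.72 for Aen and -1.40 for Phlda3, and at 8 d by -1.37 for Phlda3.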

How the results depend on the processing

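Counts below are members called out of 10, first over all arrays with the settings of the report and then under the alternative. The shares of all genes called under the alternatives are not given beside them, so a changed count need not be particular to the members. Reading each gene from another probe set, leaving out rat 18 from every contralateral comparison and the 9L markers as a covariate were chosen after seeing the data. No count moved by over 1.5 times without the intensity trend, and no single value reversed with a common median or quantile normalization. The filter on dim genes removes Tp53inp1 and Plk3. The deposited values carry no detection call, so how far dim values lie above background is not known. Where a count or direction changed, the cause was not tested. With array weights the count changed for BB effect 48 h between tissues (0 to 2), BB effect 8 d between tissues (1 to 3), contralateral BB 15 d against 8 d (0 to 4) and contralateral BB 48 h against 6 h (2 to 4). Contralateral BB 8 d against 48 h (1 to 5), contralateral BB effect 48 h against 6 h (1 to 2), contralateral MRT 15 d against 8 d (1 to 4) and contralateral MRT 48 h against 6 h (1 to 3) changed too. Contralateral MRT 8 d against 48 h (0 to 3), contralateral MRT effect 48 h against 6 h (2 to 1), contralateral MRT against BB 15 d (5 to 8) and contralateral MRT against BB 48 h (0 to 4) changed too. Contralateral MRT against BB 6 h (1 to 5), contralateral untreated 48 h against 6 h (3 to 0), contralateral untreated 8 d against 48 h (5 to 2) and tumour BB 15 d against 8 d (1 to 4) changed too. Tumour BB 8 d against 48 h (1 to 7), tumour BB against untreated 8 d (3 to 9), tumour MRT 8 d against 48 h (2 to 4) and tumour MRT against BB 15 d (1 to 3) changed too. Tumour MRT against BB 48 h (0 to 1), tumour MRT against BB 8 d (0 to 4) and tumour untreated 8 d against 48 h (2 to 4) changed too. With the mean of all probe sets of a gene the count changed for BB effect 6 h between tissues (3 to 1), MRT effect 48 h between tissues (2 to 1), MRT effect 6 h between tissues (3 to 1) and MRT effect 8 d between tissues (5 to 3). Contralateral BB 48 h against 6 h (2 to 1), contralateral BB effect 8 d against 6 h (5 to 3), contralateral BB against untreated 8 d (5 to 3) and contralateral MRT 15 d against 8 d (1 to 0) changed too. Contralateral MRT 48 h against 6 h (1 to 2), contralateral MRT against BB 6 h (1 to 0), contralateral untreated 8 d against 48 h (5 to 3) and tumour BB 15 d against 8 d (1 to 0) changed too. Tumour MRT 8 d against 48 h (2 to 1), tumour MRT against BB 15 d (1 to 0) and tumour untreated 8 d against 48 h (2 to 1) changed too. With a fit on the compared groups alone the count changed for contralateral BB 15 d against 8 d (0 to 2), contralateral BB 48 h against 6 h (2 to 5), contralateral BB 8 d against 48 h (1 to 0) and contralateral BB against untreated 48 h (8 to 1). Contralateral MRT 15 d against 8 d (1 to 3), contralateral MRT 8 d against 48 h (0 to 1), contralateral MRT effect 48 h against 6 h (2 to 1) and contralateral MRT against BB 48 h (0 to 3) changed too. Contralateral MRT against untreated 48 h (9 to 5), contralateral untreated 48 h against 6 h (3 to 0), contralateral untreated 8 d against 48 h (5 to 0) and tumour BB 15 d against 8 d (1 to 0) changed too. Tumour BB 8 d against 48 h (1 to 0), tumour BB effect 8 d against 6 h (5 to 1), tumour BB against untreated 6 h (6 to 3) and tumour MRT against BB 15 d (1 to 3) changed too. Tumour MRT against BB 6 h (1 to 0) changed too. With neuron markers as a covariate the count changed for contralateral BB 15 d against 8 d (0 to 1), contralateral BB 8 d against 48 h (1 to 0), contralateral BB effect 48 h against 6 h (1 to 2) and contralateral MRT against BB 48 h (0 to 1). Contralateral MRT against BB 6 h (1 to 0), tumour BB 48 h against 6 h (0 to 1), tumour BB 8 d against 48 h (1 to 3) and tumour untreated 8 d against 48 h (2 to 1) changed too. With 9L markers as a covariate the count changed for contralateral MRT 48 h against 6 h (1 to 2). With arrays set to a common median the count changed for contralateral BB 15 d against 8 d (0 to 1), contralateral MRT 48 h against 6 h (1 to 3), tumour BB 48 h against 6 h (0 to 3) and tumour BB effect 48 h against 6 h (0 to 1). Tumour MRT 8 d against 48 h (2 to 1) changed too. After quantile normalization the count changed for contralateral BB 15 d against 8 d (0 to 1), contralateral untreated 48 h against 6 h (3 to 1), tumour BB 48 h against 6 h (0 to 1) and tumour MRT 8 d against 48 h (2 to 1). Without the dimmest 30 percent of genes the count changed for contralateral MRT effect 48 h against 6 h (2 to 1) and contralateral untreated 48 h against 6 h (3 to 1).

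With the rat as a replicate block (consensus correlation 0.157), the count rose from 0 to 4 for the BB effect between tissues at 48 h and from 1 to 2 at 8 d, and no other count of the 7 comparisons over both tissues moved by over 1.5 times. It changed 6 calls of single genes, each of which became called. With the block and without rat 18, chosen after seeing the data, 2 were called for the BB effect at 48 h and 2 at 8 d.

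Single arrays were left out of groups of at most 5, so the MRT arrays of 6 h, 48 h and 8 d and the BB arrays of 6 h were not left out. Contralateral ranges include the fit without rat 18, also where it belongs to none of the groups compared. The ranges beside the count over all arrays were: BB effect 48 h between tissues (0, 0 to 3), BB effect 8 d between tissues (1, 1 to 2), MRT effect 48 h between tissues (2, 1 to 3) and contralateral BB 15 d against 8 d (0, 0 to 3). Contralateral BB 8 d against 48 h (1, 0 to 2), contralateral BB effect 48 h against 6 h (1, 1 to 2), contralateral BB against untreated 48 h (8, 5 to 8) and contralateral MRT 15 d against 8 d (1, 0 to 2) follow. Contralateral MRT effect 48 h against 6 h (2, 1 to 4) and contralateral MRT against BB 48 h (0, 0 to 2) follow. Contralateral MRT against BB 8 d (5, 3 to 6), contralateral untreated 48 h against 6 h (3, 0 to 4) and contralateral untreated 8 d against 48 h (5, 2 to 8) follow. Tumour BB 15 d against 8 d (1, 0 to 2), tumour BB 48 h against 6 h (0, 0 to 1), tumour BB 8 d against 48 h (1, 0 to 2) and tumour BB effect 8 d against 6 h (5, 3 to 5) follow. For contralateral MRT 48 h against 6 h (1, 4), MRT 8 d against 48 h (0, 1) and MRT against BB 6 h (1, 5) the second count is without rat 18, the only array left out there and in neither group. Tumour BB against untreated 8 d (3, 1 to 3), tumour MRT against BB 15 d (1, 0 to 1), tumour MRT against BB 8 d (0, 0 to 3) and tumour untreated 8 d against 48 h (2, 0 to 2) follow.

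Values changed sign on a dimmer probe set and were called on either it or the brightest one as follows; sign changes with no call on either are left out. They were, for Aen, the MRT effect between tissues at 8 d (0.26) and untreated tumour against contralateral (-0.03). For Cdkn1a they were contralateral untreated 8 d against 48 h (-0.05) and tumour MRT against BB at 15 d (-0.20). For Mdm2 they were contralateral BB 48 h against 6 h (0.49), 8 d against 48 h (-1.29) and tumour BB against untreated at 48 h (-0.10). Sesn1 changed sign in contralateral BB against untreated at 6 h (-0.67), MRT against BB at 15 d (0.10), untreated 8 d against 48 h (-0.36) and, at 0.00, tumour MRT against untreated at 8 d. Sesn2 did so in the contralateral BB effect 8 d against 6 h (0.12), BB against untreated at 48 h (-0.09), MRT against BB at 8 d (-0.03) and MRT against untreated at 48 h (-0.06). Plk2 changed sign in contralateral MRT against untreated at 48 h with array weights (-0.02) and without rat 18 (-0.09), in untreated tumour against contralateral (-0.16 and -0.21), and in contralateral untreated 48 h against 6 h without rat 18 (0.03). Tp53inp1 did so in tumour BB 15 d against 8 d with array weights (-0.21). Over all analyses without 1 array, these 3 Plk2 differences ranged from -0.09 to 1.09, from -0.21 to 0.18 and from -1.14 to 0.03.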
